A study of Danaus plexippus with 32 samples.

Results

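Gene expression in the brains of male and female wild-type (WT) monarch butterflies (Danaus plexippus) was compared in 16 of the 32 RNA-seq libraries of the series. All libraries labelled WT entered, 8 of them labelled male and 8 labelled female. They formed 8 pairs of 1 male and 1 female library, collected every 3 h from ZT1 to ZT22, where ZT (Zeitgeber Time) counts hours after lights on. Every male library is replicate 1 and every female library is replicate 2, so sex and replicate series cannot be told apart in these samples.

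The series was made to follow gene expression over the day, in WT monarchs and in Cry2 and Clk knockouts (KO). These lack CRY2, the repressor of the monarch circadian clock, or its activator CLK. All butterflies were kept at 25 degrees under a cycle of 15 h light with 9 h dark and were entrained as adults for at least 7 days. Each library held polyadenylated RNA of 3 pooled brains, dissected without the photoreceptors of the eye, and was read as single 50-base reads from a strand-marking kit. The 16 KO libraries, collected at ZT4, ZT10, ZT16 and ZT22, carry the same split of sex and replicate number. Values are FPKM, reads assigned to a gene by Cufflinks, scaled by the length of its transcript and by the mapped reads of the library, and differences are given as female minus male on the log2(FPKM + 1) scale, which understates the change of genes with low values.

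In butterflies and moths the female is the sex with unlike sex chromosomes. Females carry a Z and a W chromosome and males a pair of Z chromosomes, and the Z of the monarch is known to be a fusion of the ancestral Z with an autosome. In insects much of sexual identity runs through sex-specific splicing of the transcription factor gene doublesex, and expression in brains of the sexes can differ through such factors or through the number of Z chromosomes. Which scaffold lies on which chromosome was not analysed here, and the identifiers of the files (DPOGS numbers) matched no entry of the gene table at hand. Names were taken from the study's list of rhythmic genes, which gives a symbol to 427 of the 15130 genes.

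Some genes were detected in WT brains of 1 sex. DPOGS212555 (scaffold DPSCF300075:514515-516817) had an FPKM of 4.48 at the lowest, 6.71 at the median and 14 at the highest in the 8 WT male libraries, and was listed at 0 in all 8 WT female libraries. DPOGS213736 (DPSCF300619:2733-6137) ranged from 2.92 to 4.62 in the WT female libraries, with a median of 3.98, and was listed at 0 in 7 of the 8 male libraries and at 0.091 in the male library of ZT13. Both genes were chosen with the WT labels, so their split in WT is a description and no check of those labels. By the rule of an FPKM of at least 1 in all 8 libraries of one sex and below 0.1 in all 8 of the other, these were the 1 male-limited and the 1 female-limited gene of the 15130. They rested on few reads, since the interval deposited with each FPKM gives back 5 to 16 reads per male library for DPOGS212555 and 41.3 to 67.0 reads per female library for DPOGS213736.

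DPOGS203943 and DPOGS209204, also chosen on the WT values, were among the largest differences with the same sign in all 8 pairs. DPOGS203943 (DPSCF300005:68288-69431) had a median FPKM of 2.13 in males, from 0.232 to 3.58, and was listed at 0 in all 8 WT females. It rested on 1 to 14 reads per male library and was called in 8 of the 16 fits that left out 1 library. DPOGS209204 (DPSCF300061:808437-816762) had a median of 6.85 in females, from 3.90 to 9.86, and lay between 0 and 0.491 in males. Because 1 sex was at or near 0, the fitted differences of these genes carry no fold.

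**Figure D1:**
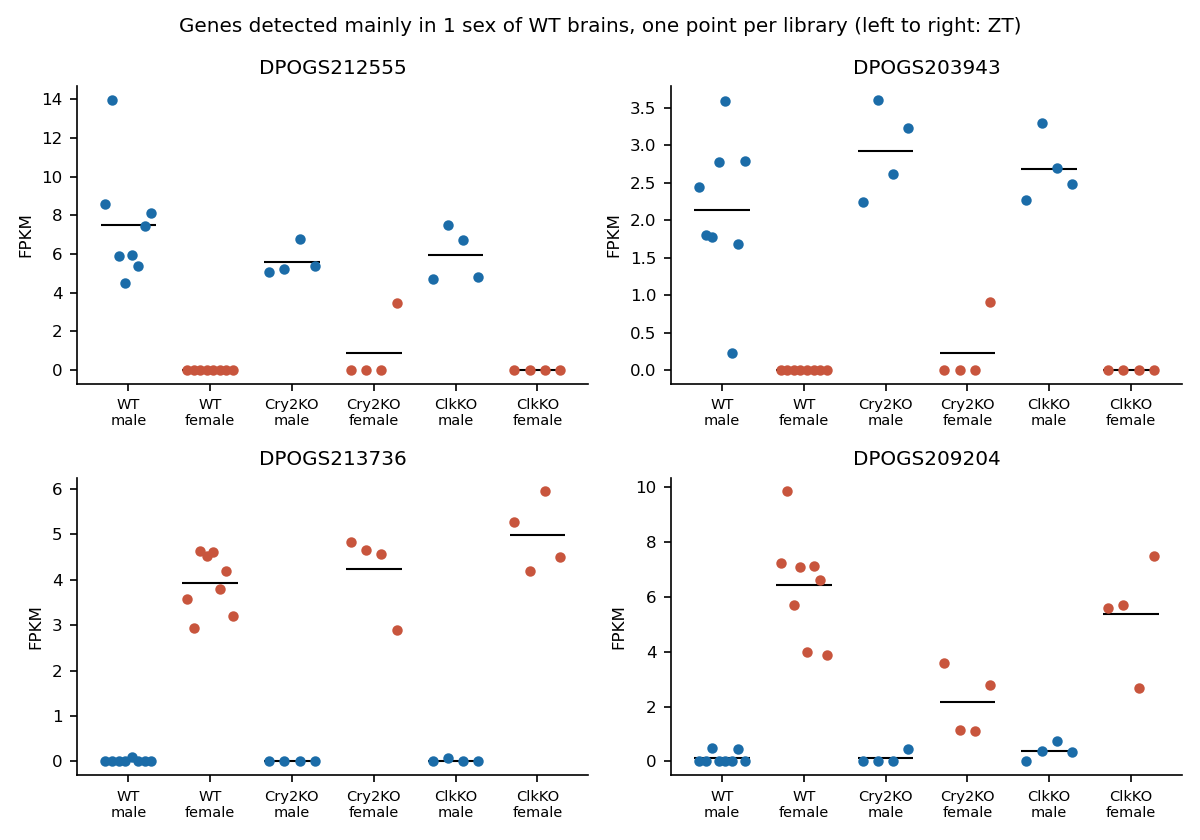
FPKM of DPOGS212555, DPOGS203943, DPOGS213736 and DPOGS209204 (linear vertical axes) in the 8 libraries of each sex of WT brains and the 4 libraries of each sex of Cry2 KO and Clk KO brains. Each point is a library, ordered from left to right by ZT, and the black line is the group mean. The genes were chosen for their split in WT, and the library labelled Cry2 KO female ZT22 is the 1 female library in which DPOGS212555 (3.49) and DPOGS203943 (0.901) are above 0.

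The KO libraries did not choose these genes, and so could be used to check their own labels. The KO male libraries, 8 in all, had DPOGS212555 between 4.69 and 7.52 FPKM. Of the 8 KO female libraries, 7 were listed at 0 for both DPOGS212555 and DPOGS203943. The library labelled Cry2 KO female ZT22 had an FPKM of 3.49 and 0.901 for these genes, each from 5 reads, and the lowest value of DPOGS213736 among the KO female libraries (2.88, against 4.20 to 5.95 in the other 7). For DPOGS209204 that library went with its label, at 2.79 FPKM from 8 reads, where the Cry2 KO male libraries had 0 to 0.447. On these few reads, that library therefore went against its label in part only. The counts and medians of the KO libraries below are given with its pair and without it.

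In WT brains, 119 of 10412 genes tested (1.14%) differed between the sexes, 62 of them (0.595%) higher in females and 57 (0.547%) higher in males (limma with time as a factor, Benjamini-Hochberg adjusted p of 0.05 or less). The genes tested were the 68.8% of all genes with an FPKM of at least 3 in any WT library, 206 of which reached it only in female and 205 only in male libraries. Of the called genes, 5 reached it only in female and 5 only in male libraries, so these entered the test through the values of 1 sex. At an unadjusted p under 0.05 there were 1429 genes (13.7%). Differences were mostly modest. Among called genes the median was 0.52 for those higher in females and -0.45 for those higher in males, against -0.01 over all genes tested. Only 16 of the 119 differed by 1 log2 unit or more, 11 higher in females and 5 higher in males. The sign was the same in all 8 pairs for 110 of the called genes, 58 higher in females and 52 higher in males, a pattern that 5.11% of all genes tested show. For 70 of the 119, every library of one sex lay above every library of the other, which holds for 1.08% of all genes tested (112 genes, 41 with females above and 71 with males above). The genes were called on these same pairs, so both patterns follow in part from the call and only describe it.

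**Figure D2:**
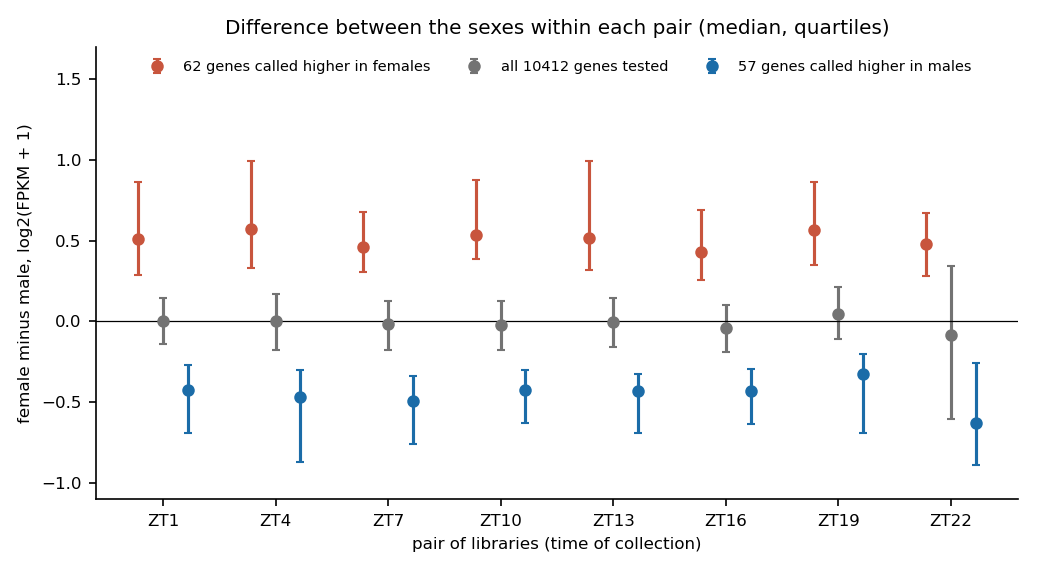
Female minus male difference on the log2(FPKM + 1) scale (vertical axis) in each of the 8 WT pairs (horizontal axis, by ZT) for the 62 genes called higher in females, all 10412 genes tested and the 57 genes called higher in males. Points are medians over genes and bars run from the lower to the upper quartile. In the 7 pairs from ZT1 to ZT19 the quartiles of all genes lie between -0.19 and 0.21, and in the ZT22 pair at -0.61 and 0.34.

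The ZT22 pair stood apart. Over all genes tested the median absolute difference within a pair was between 0.14 and 0.17 at the other 7 times and 0.46 at ZT22, where 1626 genes (15.6%) differed by 1 log2 unit or more against 437 to 541 genes elsewhere. The female library of ZT22 held the highest or lowest value of all 16 libraries for 62.4% of genes, against 5.34% to 15.1% in each of the other 15. Without this pair, 284 genes (2.73%) were called, 138 (1.33%) higher in females and 146 (1.4%) higher in males. Of the 119 genes, 116 were among them, which is 97.5% of the first list and 40.8% of the second, and all 119 kept their sign. The other 3 were DPOGS203963 (adjusted p = 0.064 without the pair), DPOGS204974 (0.0504) and DPOGS210555 (0.0504), named here after their values were seen. Leaving out any other pair instead lowered the count, to 39 without ZT1, 24 without ZT4, 28 without ZT7, 29 without ZT10, 50 to 52 without ZT13 (depending on which of its libraries was left out), 34 without ZT16 and 45 without ZT19, all with the ZT22 pair still in the fit. In all 16 fits that left out a single library, 20 of the 119 genes stayed called.

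Female libraries were sequenced more deeply. Reads on genes, recovered from the deposited intervals, ranged from 2848070 to 3300440 in the WT males and from 3425210 to 4456320 in the WT females. The female library was the deeper one in 8 of 8 pairs, by a median of 1.26 times (exact permutation over the signs of 8 pairs, two-sided p = 0.0078, the smallest it can give, and 0.0625 after adjustment over 16 library measures). Females had fewer genes listed at 0 in 7 of 8 pairs, with 2734 to 3024 genes against 3017 to 3186 in males (exact permutation p = 0.016, adjusted 0.083). FPKM are scaled for depth, but depth, sex and replicate series move together in WT, and the part of depth in the differences was not tested by a fit. At these depths the 95% interval of an expressed gene spanned a median of 18.9% to either side of its value.

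The genes with the smallest p-values, taken after their values were seen, were mostly abundant. They were DPOGS212555, DPOGS213736 and DPOGS209204, described above, and 7 genes with a mean FPKM above 100 in both sexes. None of the 7 carries a name. The 10 stayed called in each of the 16 fits that left out 1 library, and in each other alternative in which they were tested.

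DPOGS214841 (DPSCF300091:350168-352228) was the most changed of the abundant genes. Its FPKM was 1816 at the lowest, 2256 at the median and 2520 at the highest in males, and 4507, 5259 and 5682 in females. The lowest female library was thus far above the highest male library. Its mean was 2260 ± 249 in males and 5208 ± 358 in females (SD, n = 8 each), a ratio of 2.31 and a difference of 1.21 ± 0.07 (SE; limma adjusted p = 9.0e-05).

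DPOGS200090 (DPSCF300044:14967-33807) was also higher in females at every time. Males had 889 to 1002 FPKM, with a median of 938, and females had 1419 to 1689, with a median of 1509. The ratio of the means was 1.62 and the difference 0.70 ± 0.04 (limma adjusted p = 9.0e-05). DPOGS201369 (DPSCF300083:175997-198345) likewise had no overlap, with 225 to 268 FPKM in males and 314 to 410 in females. Its difference was 0.53 ± 0.04 (limma adjusted p = 0.00076).

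DPOGS206997 (DPSCF300001:896296-902682) was the most abundant of these genes, ranked 8 of 10412 by its male mean. It had 6170 to 6837 FPKM in males, with a median of 6312, and 7538.5 to 8914 in females, with a median of 8119. The groups did not overlap although the ratio of their means was only 1.28 (difference 0.35 ± 0.04, limma adjusted p = 0.0041). DPOGS208384 (DPSCF300146:372352-373967) was similar, at 1160 to 1276 FPKM in males and 1391 to 1559 in females, with a ratio of 1.23 and a difference of 0.30 ± 0.03 (limma adjusted p = 0.0061).

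The remaining pair of abundant genes was higher in males. DPOGS206864 (DPSCF300001:2544915-2547760) had 742 FPKM at the lowest, 851 at the median and 1018 at the highest in males, and 381, 485 and 536 in females. Every male library thus lay above every female one, with a male to female ratio of 1.84 and a difference of -0.88 ± 0.08 (limma adjusted p = 0.0014). DPOGS206881 (DPSCF300001:2085017-2086031) had 277 to 307 FPKM in males and 150 to 208 in females, a ratio of 1.66 and a difference of -0.74 ± 0.07 (limma adjusted p = 0.0024). The spread among males was narrow for this gene, with an SD of 10.1 on a mean of 294.

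**Figure D3:**
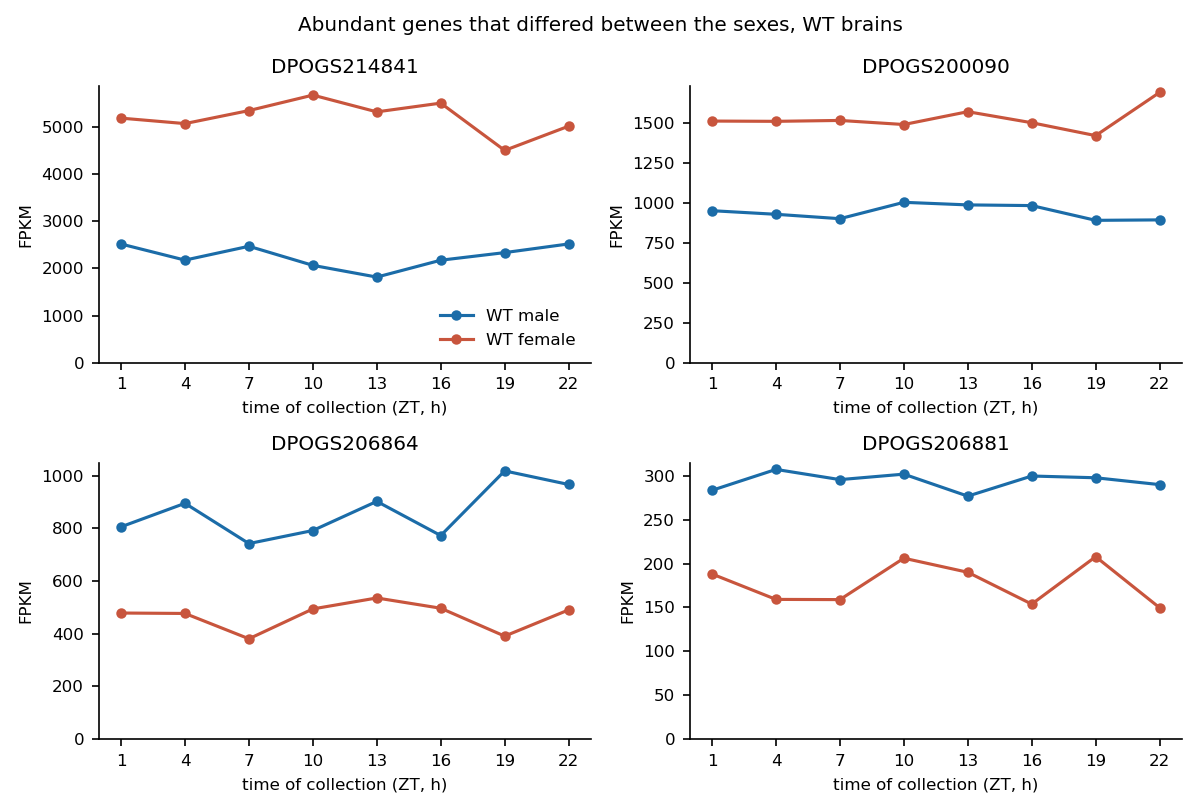
FPKM (vertical axes, linear, from 0) against time of collection (ZT, hours) in the WT male (blue) and WT female (red) libraries for DPOGS214841 and DPOGS200090, higher in females, and DPOGS206864 and DPOGS206881, higher in males. Each point is 1 library. The lines of the sexes do not cross at any of the 8 times for any of these genes.

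The gene with the largest fitted difference was less secure. DPOGS203963 (DPSCF300005:512545-512841) had a fitted difference of 3.87 ± 0.74 (limma adjusted p = 0.044) and was higher in the female library of all 8 pairs. It was listed at 0 in 4 of the 8 male libraries and reached 85.7 FPKM in the others, while females ranged from 31.5 to 321. These values came from at most 2 reads per male library and 9 reads per female library, on a short locus, and the gene was called in none of the 16 fits that left out a library. In the KO libraries it ranged from 40.4 to 209 FPKM in males and from 33.4 to 210 in females, which overlap. Low reads were the exception among called genes. Of the 119, 17 had a median under 20 reads in both sexes and 79 had a median of at least 100 reads in at least 1 sex.

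DPOGS203379 (DPSCF300003:449480-450768), singled out after its values were seen, had the second largest male-high difference of all called genes. Its FPKM in males was 15.4 to 38.6, with a median of 30.005. In females it was 1.10 to 4.10 in 6 libraries, 31.9 at ZT19 and 18.6 at ZT22. The female libraries thus fell into low and high values, and the fitted difference was -2.48 ± 0.43 (limma adjusted p = 0.032). In the KO libraries its level went with genotype. All 8 Cry2 KO libraries had 14.4 to 38.6 FPKM and all 8 Clk KO libraries 0.646 to 7.85, with no difference between the sexes called (KO difference 0.51, limma adjusted p = 0.49, and 0.44 without the Cry2 KO ZT22 pair). The difference of the sex effect between WT and KO itself did not pass (adjusted p = 0.105), and the WT difference was called in 4 of the 16 fits that left out a library.

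Of the genes named in the study's list of rhythmic genes, 431 were tested and 1 was called (0.232%, against 1.14% of all genes tested). At an unadjusted p under 0.05 in the same limma fit the shares were close, with 58 of the 431 (13.5%) against 13.7% of all. The list was chosen by the study on these same libraries for their daily rhythm. The called gene was CG10527 (DPOGS201446, DPSCF300006:920090-924973), whose Drosophila namesake encodes a putative farnesoic acid O-methyltransferase, an enzyme placed near juvenile hormone synthesis. It had 210 FPKM at the lowest, 273 at the median and 355 at the highest in males, and 252, 364 and 426 in females. The groups overlapped over the day, but the female library was the higher one in 8 of 8 pairs, by 0.32 ± 0.05 (limma adjusted p = 0.021). It was not called without pairing by time (limma adjusted p = 0.32), and it was called in 4 of the 16 fits that left out a library, those without ZT1 or ZT22.

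Without the ZT22 pair, 5 of the 431 genes were called (1.16%, against 2.73% of all). They were CG10527 (0.28 ± 0.04, limma adjusted p = 0.0080) and 4 others. CG15890 (DPOGS205855) was higher in females by 0.60 ± 0.04 (limma adjusted p = 0.00064). In the ZT22 pair left out here CG15890 went the other way, at 43.0 FPKM in the male and 33.8 in the female library. It was not called with all pairs, and was called in 2 of the 16 fits that left out a library. Sema1b (DPOGS203791), a semaphorin of the family that guides axons in Drosophila, was higher in females by 0.22 ± 0.04 (adjusted p = 0.043). ari-2 (DPOGS210716), which in Drosophila encodes a ubiquitin ligase of the ariadne family, was higher in females by 0.22 ± 0.04 (adjusted p = 0.041), and CG43693 (DPOGS203868) was higher in males, with -0.21 ± 0.04 (adjusted p = 0.048). The mean FPKM of these 4 over the male libraries lay between 25.7 and 55.5.

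The clock genes of the list were read next. Of the 5 clock genes of the list, per, tim and Cry2, which form the repressive arm of the monarch clock, and vri and cwo, transcription factors of its other loops, 0 of 5 were called with or without the ZT22 pair, where 1.14% and 2.73% of all genes tested were called. So few genes would give 0 calls at those shares, and the same holds for each list that follows. Their median difference was -0.0041, against -0.015 over all genes tested. The largest differences were those of vri (DPOGS208606, 16.5 to 95.3 FPKM in males and 18.1 to 91.9 in females, difference 0.21 ± 0.12, limma adjusted p = 0.46) and per (DPOGS203908, 10.7 to 45.7 and 8.31 to 42.0 FPKM, -0.11 ± 0.08, adjusted p = 0.55). These ranges, over 8 libraries per sex, hold the daily rhythm of the genes, and the sexes overlapped.

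Among 16 genes of glucose and glycogen metabolism 0 were called (1.14% of all genes tested), with 3 at an unadjusted p under 0.05 and a median of 0.06. The fitted difference was above 0 for 13 of the 16, where 53.9% of all genes tested were higher in males. The 16 genes share the same libraries, so this is no count of separate results. Their summed FPKM was higher in the female library in 5 of 8 pairs, with a median ratio of female to male of 1.01. The largest differences were those of Tpi, the triosephosphate isomerase of glycolysis (DPOGS200089, -0.21 ± 0.08, limma adjusted p = 0.30), and Pdk, the kinase that inhibits pyruvate dehydrogenase (DPOGS210186, 0.16 ± 0.06, adjusted p = 0.27). Among 11 neurotransmission genes 0 were called (1.14% of all), with a median of 0.01. The largest differences were those of the glutamate transporter gene Eaat2 (DPOGS202815, -0.14 ± 0.05, adjusted p = 0.29) and of Ace, acetylcholinesterase (DPOGS202609, -0.14 ± 0.06, adjusted p = 0.37).

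Among 10 heat shock genes, which encode chaperones and their regulators, 0 passed (1.14% of all genes tested), with a median of 0.03. The small heat shock gene l(2)efl (DPOGS206382) had 342 ± 145 FPKM in males and 279 ± 124 in females, a difference of -0.32 ± 0.11 (limma adjusted p = 0.23) that rested on 3 to 18 reads per library, and a copy of Hsp68 (DPOGS213901) had a difference of 0.27 ± 0.10 (adjusted p = 0.28). Among 8 genes of the ecdysone response 0 passed (1.14% of all), with a median of -0.04, the largest differences being those of ImpL2 (DPOGS205152, -0.21 ± 0.23, adjusted p = 0.67) and Cyp18a1, which inactivates ecdysone (DPOGS213007, -0.15 ± 0.11, adjusted p = 0.55).

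Markers of brain cell types and of tissues beside the brain were read in the same way. None of the 16 marker genes was listed at 0 in any WT library, and 0 of 16 were called (1.14% of all genes tested), with the neuron marker cac and the glia marker Eaat2 at an unadjusted p under 0.05. The neuron markers VGlut, Nplp1, cac, fusl and 5-HT2B summed to 202 to 239 FPKM in males and 203 to 240 in females, and the glia markers (Eaat2 and both loci of e) to 516 to 681 and 490 to 619. The genes listed under eye (Pdh, ninaB, sev and both loci of santa-maria) summed to 195 to 264 FPKM in males and 185 to 255.7 in females. Much of this sum came from santa-maria, whose loci had 70.6 and 70.9 of 203 FPKM in the WT male library of ZT1. Whether these genes are particular to the eye was not tested, so the sum is not read as eye tissue. The cuticle markers Ccp84Ae and Cpr49Ag summed to 264 to 414 and 254 to 468, and the muscle marker CBP lay between 11.4 and 24.7 in males and between 10.2 and 20.2 in females. The largest marker difference was that of cac, a calcium channel gene of neurons (DPOGS201429, 3.51 ± 1.13 FPKM in males and 5.58 ± 2.12 in females, difference 0.52 ± 0.15, limma adjusted p = 0.16). It rested on 5 to 17 reads per male library and 13 to 40 per female library, and at ZT16 the male library was the higher one. In brain tissue, fewer cells of a type and less RNA per cell cannot be told apart.

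The called genes were spread over 63 scaffolds, with some unevenness. Of the 119, 46 lay on the 5 scaffolds with the most calls, which hold 628 of the 10412 genes tested. These scaffolds were picked by their calls, so part of this follows from the choice. The last of the 5, DPSCF300005 (4 of 63 called), tied with DPSCF300146 (4 of 13) and was taken for its larger number of genes tested. DPSCF300001 held 19 called genes among 314 tested (6.05%, against 1.14% of all genes), 7 higher in females and 12 higher in males. Without the ZT22 pair it held 38 (12.102%, against 2.73%), 11 higher in females and 27 higher in males. With all pairs it was the only scaffold with at least 10 called genes, and was described for that reason. Without ZT22, DPSCF300028 (14 of 102 called, 13.7%), DPSCF300012 (13 of 64, 20.3%) and DPSCF300003 (12 of 85, 14.1%) also reached 10. By its share of calls DPSCF300001 ranked 8 of the 112 scaffolds with at least 30 tested genes.

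The median difference over all genes of DPSCF300001 was slightly below that of all genes in WT. It was -0.11, and -0.08 without the ZT22 pair, against -0.01 over all genes tested, and ranked 5 from the lowest of the 112 scaffolds (2 without the ZT22 pair). It was below the median of all genes in 8 of 8 pairs, with a gap between -0.043 (ZT16) and -0.15 (ZT22). The called gene with the largest difference was in the other direction. DPOGS206871 (DPSCF300001:2314364-2317184) had 0 to 1.45 FPKM in males, with a median of 1.004, and 2.06 to 4.54 in females, with a median of 3.77, a difference of 1.31 ± 0.20 (limma adjusted p = 0.021). It stood on at most 18 reads in a library and was called in 6 of the 16 fits that left out a library. DPOGS206864, DPOGS206881 and DPOGS206997, described above, lie on the same scaffold.

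DPSCF300012, described after its values were seen, had the lowest median among the 112 scaffolds with at least 30 tested genes, at -0.17 over 64 genes (-0.14 without the ZT22 pair). It held 8 called genes (12.5%), 7 of them higher in males. Scaffold medians ranged from -0.17 to 0.15 with all pairs and from -0.14 to 0.07 without ZT22. In the KO libraries the median of DPSCF300012 was -0.12 in Cry2 KO and -0.02 in Clk KO, where the medians of all genes were -0.01 and 0.13. That of DPSCF300001 was -0.07 and 0.06. Without the Cry2 KO ZT22 pair the Cry2 KO medians were -0.11 for DPSCF300012 and -0.08 for DPSCF300001. Relative to the median of all genes, both scaffolds were thus lower in females in both knockouts. The same held for the other scaffolds among the 5 with the most calls. In Cry2 KO and Clk KO their medians were -0.04 and 0.10 for DPSCF300028, -0.08 and 0.09 for DPSCF300003, and -0.09 and 0.05 for DPSCF300005.

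**Figure D4:**
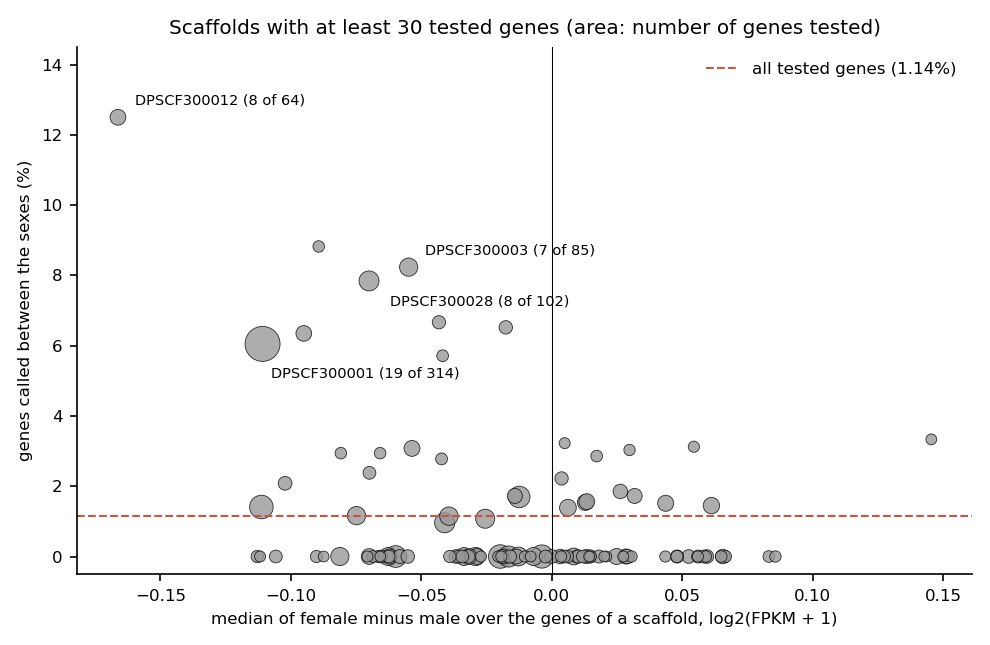
Share of tested genes called between the sexes in WT (vertical axis, %) against the median female minus male difference of all tested genes of a scaffold (horizontal axis, log2(FPKM + 1)), for the 112 scaffolds with at least 30 tested genes. The area of a point grows with the number of genes tested and the dashed line is the share over all tested genes. DPSCF300001 (19 of 314) and DPSCF300012 (8 of 64) lie above the line and left of 0. Other scaffolds do so as well, among them DPSCF300083, DPSCF300003, DPSCF300028 and DPSCF300005.

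Whether the difference between the sexes moved with time of day was tested with little power. A test of sex by a 24-h cosine and sine called 0 of 10412 genes (limma moderated F test), 317 (3.04%) had an unadjusted p under 0.05, and the smallest adjusted p was 0.98. Without the ZT22 pair 0 were called and 553 had an unadjusted p under 0.05. With 1 library per sex and time, a count of 0 does not show that the difference was constant over the day. Among the 7 abundant genes above, DPOGS214841 had the lowest unadjusted p (0.016, adjusted p = 0.98), with a fitted range of its sex difference of 0.50 over the day.

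The 16 KO libraries, which did not choose the genes, were used to read the called genes a second time. Of the 119, 105 (88.2%) had the same direction in the KO libraries, against 52.8% of all genes tested, and 76 (63.9%) had it with an unadjusted p under 0.05, against 7.58% of all. The same direction was found for 105 in Cry2 KO alone and 101 in Clk KO alone (53% and 51% of all genes). Without the pair that holds the library labelled Cry2 KO female ZT22, 104 had the same direction (52.5% of all genes tested), 74 with an unadjusted p under 0.05 (7.25% of all), and in Cry2 KO alone 102 had it (52.0% of all). Of the 284 genes called without the WT ZT22 pair, 225 (79.2%) had the same direction, and 226 without the Cry2 KO ZT22 pair. By relative mapped depth, which follows all mapped reads of a library, female libraries were deeper in 4 of 4 Cry2 KO pairs and 8 of 8 WT pairs. In Clk KO the male libraries were deeper by this measure in 4 of 4 pairs. The ratio of female to male relative mapped depth was 1.11 to 1.28 in Cry2 KO and 0.786 to 0.986 in Clk KO. Reads on genes, the measure used for WT above, did not all follow this in Clk KO. At ZT10 they were 3741215 in the Clk KO female and 3364482 in the Clk KO male library, and at the other times the male library had more.

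The genes were called on their WT values, so that smaller differences in other libraries can follow from the choice. They are not read as a change, and how much of them follows from the choice was not tested. The genes called higher in WT females had a median KO difference of 0.35, and those called higher in WT males of -0.20, where the median over all genes was 0.06. Without the Cry2 KO ZT22 pair these medians were 0.37, -0.23 and 0.07. DPOGS206864, higher in males, had 405 to 739.5 FPKM in the 8 KO males and 329 to 484 in the 8 KO females, where WT males had 742 to 1018 (KO difference -0.44 ± 0.06, limma adjusted p = 0.017). DPOGS206881 differed by -0.23 ± 0.04 in KO (adjusted p = 0.0805), with 206 to 243 FPKM in males and 175 to 235 in females, which overlap. The overlap rested on the library labelled Cry2 KO female ZT22. Without its pair males had 206.2 to 241.8 and females 175.1 to 205.6 with no overlap, and the difference was -0.25 (limma adjusted p = 0.0642). DPOGS200090 had 790.4 to 1018 FPKM in KO males and 1272 to 1681 in KO females (1388 at the lowest without that library), a difference of 0.74 ± 0.06 (adjusted p = 0.0014). The test of the difference between the WT and KO sex effects called 0 of 10412 genes (limma, 1043 at an unadjusted p under 0.05), and its lowest adjusted p among the genes described here was that of DPOGS206881 (0.066). Without the WT ZT22 pair it called 2 genes, DPOGS203962 (adjusted p = 0.0274) and DPOGS208801 (0.0380), and after quantile normalization DPOGS203962 (0.0210), named after their values were seen.

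In the KO libraries alone 37 genes (0.355%) were called, 26 higher in females and 11 higher in males. Of these, 21 were also called in WT, which is 56.8% of the KO list and 17.6% of the WT list, and all 21 had the same direction. Without the Cry2 KO ZT22 pair 21 genes were called, 15 higher in females and 6 higher in males, and 14 of them were also called in WT, all 14 in the same direction. Those called with all pairs included DPOGS212555, DPOGS203943, DPOGS213736, DPOGS209204, DPOGS214841, DPOGS200090, DPOGS201369 and DPOGS206864. Of these, DPOGS201369 was not called without the Cry2 KO ZT22 pair (limma adjusted p = 0.0642). CG15890 was called in KO with a difference of 0.45 (adjusted p = 0.037), and not without that pair (0.0642). The count was 13 without the Cry2 KO pair of ZT4, 17 without that of ZT10, 19 without that of ZT16 and 21 without that of ZT22. It was 29, 14, 20 and 13 without the Clk KO pairs of the same times, in that order.

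**Figure D5:**
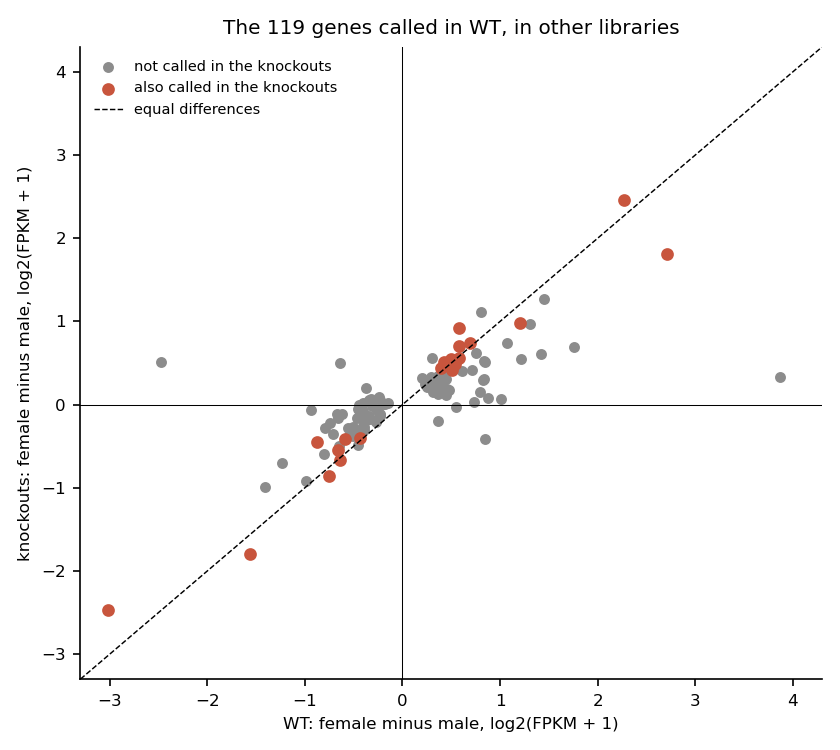
Female minus male difference on the log2(FPKM + 1) scale in WT (horizontal axis) and in the KO libraries (vertical axis) for the 119 genes called in WT, 1 point per gene. Red points are the 21 genes also called in the KO libraries and the dashed line marks equal differences. For 105 of 119 genes both differences have the same sign.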

How the data were processed

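Polyadenylated RNA of 3 pooled brains per library was sequenced. The submitters' processing notes name CASAVA 1.8.2, TopHat2 and Cufflinks. Per the study's methods, the authors mapped the reads to the v3 monarch assembly (TopHat2), keeping 1 location per read, so that genes with near-identical copies are uncertain. The authors deposited FPKM per gene with a 95% interval as Cufflinks gave them, and whether strand was used is not given in the sources used here. The labels state that 16 libraries were mixed for sequencing, without saying which. No counts were at hand, and no count model was used. Reads were taken as the squared ratio of FPKM to its SD, read from the upper bound as FPKM plus 2 SD, which gave whole numbers (within 0.05) for 87.0% of 106376 values under 20 reads. Reads on genes in WT ranged from 2848070 to 4456320 per library, and intervals cover counting error only.

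Samples were grouped by genotype, sex and time in their labels. Genes with FPKM of at least 3 in any of the 16 WT libraries were fitted on log2(FPKM + 1), pseudocount 1, with limma 3.58.1 in R 4.3.3 (intensity trend, two-sided, Benjamini-Hochberg adjustment over 10412 genes, a gene being called where the adjusted p-value was at most 0.05). The WT fit had time as a factor, the KO fit genotype-by-time, and the 24-h fit sex by cosine and sine. Nothing says whether libraries of a replicate number were handled together. Each sex has 1 pool per time, so the p-values of the WT and KO sex fits measure the spread of the female minus male differences across pairs. That spread holds differences between pools together with any change of the sex difference with time or, in KO, genotype. In the 24-h fit they measure the spread of libraries around the fitted curves. Library measures were tested by exact permutation of the signs of 8 pairs with numpy 2.4.6 and scipy 1.17.1 in Python 3.11.15, where tables were handled by pandas 2.3.3 and drawn by matplotlib 3.10.9. The fits were tested on simulated data.

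The comparison and gene lists (clock, metabolism, neurotransmission, heat shock, ecdysone, markers) were chosen with earlier results of these data known. Named genes were the called or 2 largest members of each list, called genes with a name, the 2 largest differences per direction with the same sign in 8 pairs, the leading gene of a scaffold with at least 10 calls, and genes limited to a sex. The 10 genes of smallest p and those said to be singled out were added after their values were seen. Alternatives were another pseudocount (0.1), filter, scaling, time term or weighting, no pairing, and each library left out, and, added after the data were seen, each KO pair left out, and the WT against KO test without the WT ZT22 pair or after quantile normalization.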

Additional observations from a re-analysis of the deposited data

Results flagged for a closer look

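For 21 of 138 groups of 4 or 8 libraries examined, 1 library lay far from the rest by Dixon's criterion. Its nominal rate of about 5% is no chance rate here, because the groups share libraries and genes. Where all other libraries are at 0, a single read meets it, as for DPOGS213736 in the WT male library of ZT13. The female library of WT ZT22 lay far from the rest for the SD of its log2 values from the WT mean (0.659, others 0.384 to 0.445). It also did so for its reads on genes per unit of relative mapped depth (4.01 in relative units, others 3.55 to 3.60). DPOGS210555 was high in both WT libraries of ZT22, at 213 FPKM in the male (others 84.8 to 141) and 292 FPKM in the female (others 125 to 182), and DPOGS201369 was high in the WT male of ZT22 (268, others 225 to 245).

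The library labelled Cry2 KO female ZT22 stood apart from the other 3 Cry2 KO female libraries for 4 genes. It had 3.49 FPKM of DPOGS212555 and 0.901 of DPOGS203943, where the others were listed at 0. It had 2.88 of DPOGS213736 (others 4.57 to 4.83) and 1272 of DPOGS200090 (others 1388 to 1399).

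In WT males DPOGS212555 was high at ZT4 (14 FPKM, others 4.48 to 8.61), DPOGS203379 was low at ZT16 (15.4, others 28.7 to 38.6) and DPOGS213736 was above 0 at ZT13 (0.0910). In Cry2 KO males DPOGS209204 was above 0 at ZT22 (0.447), DPOGS204974 was above 0 at ZT4 (0.587) and DPOGS206997 was high at ZT22 (6015, others 5352 to 5444). In Clk KO males DPOGS213736 was above 0 at ZT10 (0.0690), DPOGS204974 was above 0 at ZT22 (1.12), DPOGS203963 was high at ZT22 (197, others 71.4 to 84.1) and CG10527 (DPOGS201446) was low at ZT4 (243, others 306 to 314). In Clk KO females CG10527 was low at ZT4 as well (298, others 350.4 to 359.6), and so was DPOGS200090 (1466, others 1661 to 1681).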

How the results depend on the processing

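Of the 119 genes that differed between the sexes in WT, 70 stayed called in all 9 alternatives other than leaving out 1 library. Without the ZT22 pair 284 genes were called (138 higher in females, 146 higher in males), without pairing by time 187 (116 higher in males), with time as a cosine and sine 216 (132 higher in males) and with limma library weights 362 (165 and 197), where the libraries of the ZT22 pair had the lowest weights. Leaving out 1 library, which takes its pair out of the contrast, gave 24 to 285 genes, 13 to 139 higher in females and 11 to 146 higher in males. The lowest count was without ZT4 and the highest without the male library of ZT22. The pseudocount, filter and scaling alternatives gave 106 to 126. The test of the 24-h pattern called 0 genes in every alternative run, with 268 to 597 at an unadjusted p under 0.05.

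In the knockouts quantile normalization gave 84 genes, Cry2 KO alone 0 (703 at an unadjusted p under 0.05), Clk KO alone 0 (1345), and leaving out 1 pair 13 to 29. The sex effect differed between WT and knockouts for 2 genes without the WT ZT22 pair (DPOGS203962, limma adjusted p = 0.0274, and DPOGS208801, adjusted p = 0.0380) and for 1 after quantile normalization (DPOGS203962, 0.0210), named after their values were seen. The sign of Cpr49Ag (DPOGS213666), not called in any fit, changed when the pair of ZT4 or ZT16 was left out (-0.118 to 0.0587 over the fits that left out a library). The cause of these changes was not tested. Genes under about 20 reads are limited by depth. No paired analysis by replicate number was possible because each sex carries 1 replicate number, and the pairing used is by time.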
